A study of Homo sapiens with 5 samples.

Results

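The 7 genes described here, TUSC1, MPV17L, ASTE1, CCDC152, AC097652.1, AC079062.1 and AC004687.1, were selected on their own readout in these libraries, low values in all 3 CFIm25-m clones and higher values in both mock controls, out of 33857 genes listed. Their levels are therefore given as a description, with no test. The study measured poly(A)+ RNA in the human embryonic stem cell line H9, grown in mTeSR medium. After plasmid transfection, cultures were selected on puromycin and single-cell clones were expanded, and no other treatment is named for these libraries. The control libraries (n = 2) are titled control H9 cells, without the word mock. They are taken here as the paper's mock control cells, which had received the empty eCRISPR plasmid. The paper also shows H9 cells as a separate control, and the titles do not tell these apart. CFIm25-m cells (n = 3, clones 1, 2 and 3) had received the same plasmid with guide RNAs against CFIm25, the cleavage factor I subunit encoded by NUDT21. The sample titles call the CFIm25-m cells CFIm25 KO, while the paper describes them as a knockdown with residual protein that carries a short N-terminal deletion. Each CFIm25-m library is taken here as 1 of the study's 3 edited clones, which the sample titles do not state. The study's account describes its mock controls as a pair of clones carrying the empty vector, without tying a library to a clone.

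The edited gene was still transcribed in the clones. NUDT21 had normalized read counts of 6503 and 6398 in the mock controls, against 4035, 3281 and 3400 in the clones, a log2 fold change of -0.86 (SE 0.11, adjusted p = 0.00431 by limma across all genes). Without mock control 1 the adjusted p was 0.0618, and without mock control 2 it was 0.0557. The libraries held 18754108 to 23372391 reads. The 9 pluripotency markers examined summed to 240902 and 244829 normalized counts in the mock controls, against 221077 to 224815 in the clones, and none passed the test. ZFP42 (REX1), a pluripotency factor outside these 9, had 2306 and 2403 in the mock controls, against 4.01, 3.6 and 0 in the clones. The 4 endoderm markers summed to 2.7 to 23.1 in all libraries, with FOXA2 at 0 in at least 1 of them. Over all libraries, mesoderm markers summed to 76.2 to 105, neuroectoderm to 10.6 to 24.1, extraembryonic to 150 to 276 and fibroblast to 11370 to 14876.

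TUSC1 (tumour suppressor candidate 1) is an intronless gene whose loss has been studied in lung cancer. MPV17L encodes a relative of MPV17, a family of small membrane proteins of mitochondria and peroxisomes linked to the handling of reactive oxygen. ASTE1 encodes a nuclease related to FEN1 that acts with the 53BP1-shieldin proteins, which protect broken DNA ends from resection. CCDC152 encodes a coiled-coil protein, and its transcript runs antisense to SELENOP, the plasma carrier of selenium. AC004687.1 is the deposited name of the MIR142 host transcript (MIR142HG in RefSeq), from which the blood-cell microRNA miR-142 is cut. AC097652.1 (LOC339975) and AC079062.1 (LINC02864) are long non-coding RNAs.

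The members did not share a place in the genome. They lay on 7 chromosomes, 4 were annotated as protein-coding and 3 as non-coding, and 5 were on the minus strand. In hg38, TUSC1 spanned chr9:25676389-25678440, MPV17L chr16:15395754-15413268, ASTE1 chr3:131013875-131027649 and CCDC152 chr5:42756801-42802360. AC097652.1 spanned chr4:187304083-187309682, AC079062.1 chr18:73151241-73264480 and AC004687.1 chr17:58330884-58332508.

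The start regions of 4 members are shown because the genes were examined for features common to their promoters and for genes that start beside them on the opposite strand. Each is the 250 bases before the RefSeq start (GRCh38.p14), read 5′ to 3′ on the gene's own strand, with matches on either strand in capitals to the TATA box (TATAAA), the CCAAT box, the core of the GC box (GGGCGG), an ETS-type motif (CCGGAAG) and the E-box (CACGTG). TUSC1 is chr9:25678445-25678694 (minus strand), ASTE1 chr3:131026826-131027075 (minus strand), CCDC152 chr5:42756568-42756817 (plus strand) and AC004687.1 chr17:58332521-58332770 (minus strand).
TUSC1: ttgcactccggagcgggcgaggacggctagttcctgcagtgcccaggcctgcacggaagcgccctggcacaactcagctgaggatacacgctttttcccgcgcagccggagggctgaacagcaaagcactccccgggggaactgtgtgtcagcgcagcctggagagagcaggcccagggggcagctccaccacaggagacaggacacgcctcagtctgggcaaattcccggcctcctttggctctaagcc
ASTE1: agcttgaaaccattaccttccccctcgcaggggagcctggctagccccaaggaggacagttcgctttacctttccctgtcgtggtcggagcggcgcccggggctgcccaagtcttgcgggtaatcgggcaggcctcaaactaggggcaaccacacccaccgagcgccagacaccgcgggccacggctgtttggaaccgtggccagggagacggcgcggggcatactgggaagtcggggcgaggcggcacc
CCDC152: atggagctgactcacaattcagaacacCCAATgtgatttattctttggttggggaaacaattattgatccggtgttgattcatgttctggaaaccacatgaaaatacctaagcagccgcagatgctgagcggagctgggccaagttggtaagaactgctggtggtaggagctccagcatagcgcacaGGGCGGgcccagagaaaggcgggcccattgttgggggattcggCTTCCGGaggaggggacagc
AC004687.1: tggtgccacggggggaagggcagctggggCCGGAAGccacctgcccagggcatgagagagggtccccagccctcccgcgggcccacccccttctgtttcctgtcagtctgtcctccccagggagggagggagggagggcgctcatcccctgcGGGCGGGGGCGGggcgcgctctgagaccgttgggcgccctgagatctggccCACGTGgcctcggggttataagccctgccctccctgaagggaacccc

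No motif was common to all 4 of these promoters. In windows of 300 bases, which add 50 bases after the start, ASTE1 held none of the 5 motifs and no member held TATAAA, a match found in 11.5% of the 35116 RefSeq promoters. GGGCGG matched in TUSC1 (opposite strand, beginning 9 bases into the transcript), CCDC152 and AC004687.1, and in 45% of all promoters. In AC004687.1 a pair of GGGCGG matches stood end to end at -98 and -92, and CACGTG lay at -47, a motif present in 7.26% of promoters. CCGGAAG matched in CCDC152 at -20 and in AC004687.1 at -221 against 10.3% of promoters, and CCAAT matched only in CCDC152, at -223, against 34.6%. None of these matches overlaps another.

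The CpG content of the 4 windows also varied. GC content was 67% for TUSC1, 65.7% for ASTE1, 54.7% for CCDC152 and 71.3% for AC004687.1, beside a median of 58.7% over all promoters. The ratio of observed to expected CpG was 0.778 for ASTE1, 0.659 for TUSC1, 0.445 for AC004687.1 and 0.427 for CCDC152, with a median of 0.579 over all promoters. Hence ASTE1 and TUSC1 were above that median and the other two below it.

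miR-142 is shown because its hairpin lies inside AC004687.1, at chr17:58331232-58331318 on the minus strand. The mature sequences from RefSeq are printed 5′ to 3′ with the seed, bases 2 to 8, in capitals, and the 2 arms have different seeds. Mature microRNAs are not captured by a poly(A)+ library, so their levels were not measured.
hsa-miR-142-5p: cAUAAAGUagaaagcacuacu
hsa-miR-142-3p: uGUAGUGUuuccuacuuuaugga

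Among the protein-coding members, TUSC1 had normalized read counts of 106 and 124 in the mock controls, against 0 reads in each clone. With 3 reads per library as the most that a count of 0 allows, TUSC1 was at least 40.2-fold lower in the clones. In such bulk RNA, fewer cells that express a gene and less RNA per cell cannot be told apart. MPV17L stood at 120 and 123 in the mock controls, against 2, 0 and 0 in the clones. Those values rest on 231 reads in the mock controls together and 2 reads in the clones, both in clone 1, which puts the clones at 0.524% of the mock level (exact 95% interval 0.063 to 1.91%). This and the following intervals cover counting error only.

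ASTE1 was low rather than absent. Its normalized read counts were 80.7 and 68.5 in the mock controls, against 4.01, 3.6 and 4.81 in the clones, from 4 to 5 reads per clone. The clones reached 5.58% of the mock level (exact 95% interval 2.9 to 9.85%), with means of 4.14 ± 0.615 (SD, n = 3) in the clones and 74.6 ± 8.6 (n = 2) in the mock controls. CCDC152 had 189 and 169 in the mock controls, against 9.02, 13.5 and 9.62 in the clones, from 9 to 15 reads per clone. This was 6.07% of the mock level (exact 95% interval 4.13 to 8.64%), so the 2 intervals overlap widely.

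Of the non-coding members, AC097652.1 had 26.5 and 44.4 in the mock controls, against 0 reads in each clone, at least 12.4-fold lower. The 2 mock controls differed 1.67-fold for this gene, the widest gap between them among the 7. AC079062.1 had 25.4 and 16.4 in the mock controls, from 22 and 17 reads, and 0 reads in each clone, at least 7.29-fold lower. It is the scarcest member by reads in the mock controls. AC004687.1 had 149 and 161 in the mock controls, against 16, 3.6 and 10.6 in the clones, or 6.33% of the mock level (exact 95% interval 4.23 to 9.19%).

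The 7 genes thus fell into different ranges of residual reads. TUSC1, AC097652.1 and AC079062.1, 3 of the 7, had no read in any clone, while ASTE1, CCDC152 and AC004687.1 had reads in all 3 clones. The name near zero does not describe the latter 3 closely, since each kept reads in every clone. The limit of 3 reads per library, which takes each library alone, does not separate AC079062.1 or AC097652.1 from these 3 genes. The exact interval uses the summed reads of each group. By that interval, AC079062.1 (0 to 6% of the mock level) overlapped all 3 of them. AC097652.1 (0 to 3.32%) overlapped ASTE1 (2.9 to 9.85%) but not CCDC152 (4.13 to 8.64%) or AC004687.1 (4.23 to 9.19%). The clones did not order the same way from gene to gene. Clone 2 was the highest of the 3 for CCDC152 and the lowest for AC004687.1, and clone 1 was the highest for AC004687.1. These orders rest on few reads. ASTE1 had 4 reads in both clone 1 and clone 2, and MPV17L had 2 reads in clone 1 alone. Added over the 7 genes, the clones held 31, 23 and 26 reads and the mock controls 604 and 732. In each of the 7 genes every clone was below both mock controls, which the selection fixed, and the same holds in either direction for 36.8% of the 19232 genes tested.

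**Figure D1:**
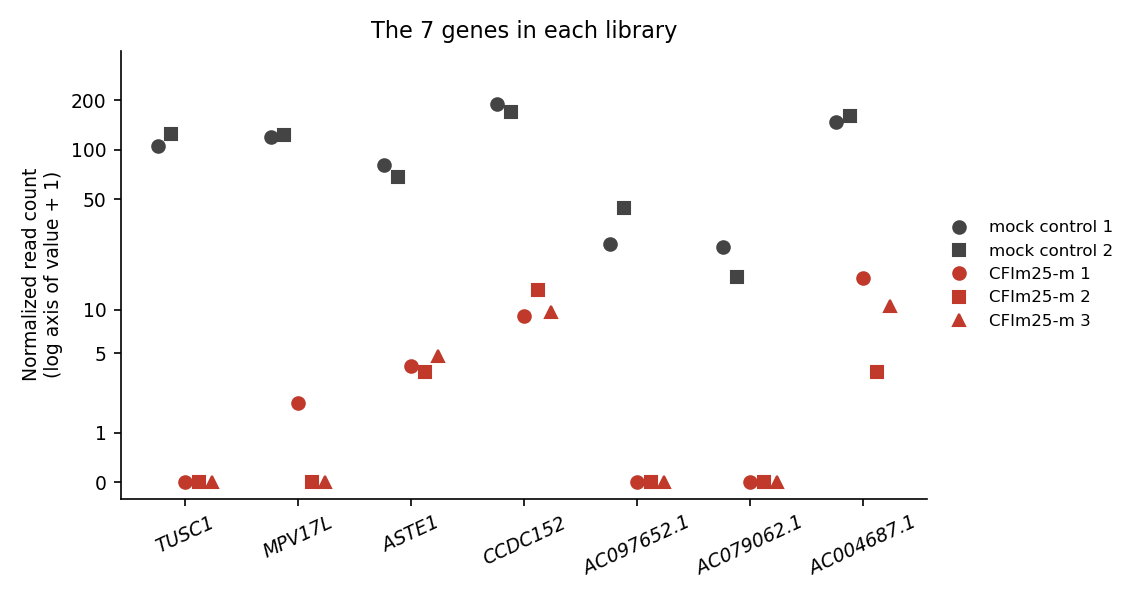
Normalized read count of each of the 7 genes in each of the 5 libraries, on a log axis of value + 1 labelled with the value itself. Grey points are the mock controls and red points the CFIm25-m clones, with a marker shape for each replicate number. TUSC1, AC097652.1 and AC079062.1 lie at 0 in all 3 clones, and AC004687.1 spreads from 3.6 to 16.

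On the log2 scale of value + 1, the differences between the group means were -6.86 for TUSC1, -6.40 for MPV17L and -5.14 for AC097652.1. They were -4.42 for AC079062.1, -4.01 for AC004687.1, -3.96 for CCDC152 and -3.88 for ASTE1. For the 3 genes with no read in the clones, this difference is set by the mock level and the value of 1 added before the log, and it is no estimate of a fold change. All 7 genes passed the filter of 10 normalized counts in 2 libraries, 6 of them through the mock controls alone.

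In the mock controls the members were not highly expressed. Per kilobase of gene length, AC004687.1 had a mean normalized count of 95.3, TUSC1 of 56.2 and CCDC152 of 52.2. ASTE1 had 21.8, MPV17L 20.2, AC097652.1 16.8 and AC079062.1 3.05. TUSC1 (51.7 and 60.7) and CCDC152 (55.1 and 49.2) overlapped between the 2 libraries, as did ASTE1 (23.5 and 20) with MPV17L (19.9 and 20.4) and MPV17L with AC097652.1 (12.5 and 21). AC004687.1 and AC079062.1 stood clear of their neighbours in this order. By the same measure 58.2% of tested genes were below AC004687.1 and 4.33% were below AC079062.1, with the other members between these shares.

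To place the members among all genes, every listed gene with at least 20 normalized counts in both mock controls was examined. A gene was counted as near zero in every clone when its highest clone value plus 1 was below 0.1 of its lowest mock value plus 1. This held for 10 of 15711 genes (0.0636%). TUSC1, MPV17L, AC097652.1, ASTE1 and CCDC152, 5 of the 7, were in that set. AC079062.1 was below 20 in mock control 2 and was not eligible, and AC004687.1, at a ratio of 0.114, fell just outside, while CCDC152, at 0.0854, was just inside. In the opposite direction 1 gene of 15665 (0.00638%) was near zero in both mock controls, KLHL34, a gene named after its values were seen, with 0 and 0.965 in the mock controls, against 44.1, 42.3 and 51.9 in the clones.

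The same threshold was met in single clones by more genes. It was met by 16 genes in clone 1, 21 in clone 2 and 25 in clone 3, of which 10 were common to the 3 clones and 23 met it in 1 or 2 clones only. Between the mock controls, AC083805.2 was near zero in mock control 2 against mock control 1, and the keratin genes KRT5 and KRT14 were near zero in mock control 1 against mock control 2. These 3 genes were also named after their values were seen, and all 3 were low in the clones, with at most 12.6 normalized counts.

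**Figure D2:**
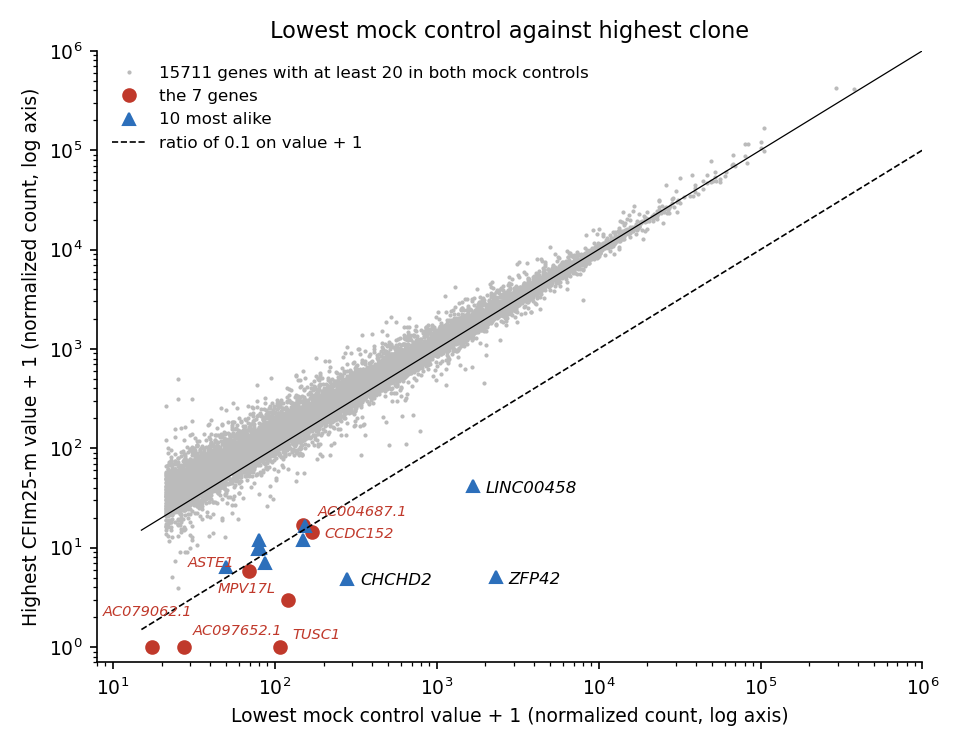
Highest CFIm25-m value against lowest mock control value, both as normalized read count plus 1 on log axes. Grey points are the 15711 genes with at least 20 in both mock controls, red points the 7 genes and blue triangles the 10 genes most like them, the solid line marks equal values and the dashed line a ratio of 0.1. ZFP42, CHCHD2 and LINC00458 lie farthest to the right below the dashed line, and TUSC1 lies at 0 in the clones.

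The 10 genes most like the members, by the lowest ratio of highest clone to lowest mock value over the 5 libraries, began with ZFP42 (ratio 0.00217), CHCHD2 (0.0173) and LINC00458 (0.0249). ZFP42, the pluripotency factor also called REX1, had 2306 and 2403 in the mock controls, against 4.01, 3.6 and 0 in the clones. CHCHD2, a twin CX9C protein of mitochondria and nucleus with pseudogene copies that could share its reads, had 280 in both mock controls and 1, 2.7 and 3.85 in the clones. LINC00458, a long non-coding RNA of embryonic stem cells, had 1698 and 1664 in the mock controls, against 20, 18 and 40.4 in the clones. They were followed by the zinc finger genes ZNF502 (0.0802) and ZNF717 (0.107) and by LINC00654 (0.0803), LRRC61 (0.123), AC016205.1 (0.124), AL009031.1 (0.127) and NR1I2 (0.151). These 10 were chosen by the same readout, so their levels are a description.

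Most of these genes were far from the members. A member and a gene of that list shared a chromosome in 5 pairs. On chromosome 3, ASTE1 was 11.2 Mb from NR1I2, 55.3 Mb from ZNF717 and 86.3 Mb from ZNF502, and on chromosome 18, AC079062.1 was 33.9 Mb from AC016205.1. On chromosome 4, AC097652.1 was 0.692 Mb from ZFP42, with no other listed gene between them.

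Neighbours of each member were examined to see whether genes beside it were also low. The 3 nearest listed genes on each side, all overlapping genes and any gene starting within 1000 bases on the opposite strand gave 43 genes, of which 24 had enough reads to be tested. These genes were chosen by position alone. Of the 24, 2 passed the threshold, beside 1.88% of all 19232 genes tested (0.936% in the lower direction). They were ELAVL2, which was higher in the clones, and ZFP42, which is also the gene most like the members by readout, so that only ELAVL2 remains as a call apart from that readout. In 10 of the 24 (41.7%) the groups did not overlap, beside 36.8% of all genes. At an unadjusted p below 0.05, 5 of the 24 passed, beside 15.1% of all genes. Each of these counts includes ZFP42, whose readout is that of the members, so its part in them is no finding.

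ASTE1 is the one member with an opposite-strand gene at its promoter. NEK11, a NIMA-related kinase of the DNA damage checkpoint, starts 799 bases from the ASTE1 5′ end in the deposited annotation, and the 2 genes overlap over 800 bases. In RefSeq, the nearest NEK11 start is 52 bases from the ASTE1 start, head to head, and the 2 promoter windows share 151 bases, so the ASTE1 sequence shown above also lies around a NEK11 start. NEK11 had normalized read counts of 35.7 and 18.3 in the mock controls, against 12, 11.7 and 4.81 in the clones. All clones were below both mock controls, but the log2 fold change of -1.43 (SE 0.50) did not pass the test (adjusted p = 0.212). NEK11 was scarce in the mock controls, which differed from each other by more than mock control 2 differed from clone 1. The ratio of ASTE1 to NEK11 was 2.26 and 3.74 in the mock controls, against 0.333, 0.308 and 1 in the clones. ASTE1 was selected as low in the clones, so a lower ratio there was largely fixed, and it is given as a description.

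Of the other genes around ASTE1, AC055733.1, AC055733.2 and AC055733.3 were at or under 4.01 normalized counts in all libraries and were not tested. ATP2C1, a calcium and manganese pump of the Golgi, runs into the 3′ end of ASTE1 from the opposite strand over 2838 bases and had 2202 ± 42.9 (SD, n = 3) in the clones and 2320 ± 19.9 (n = 2) in the mock controls (log2 fold change -0.08, adjusted p = 0.71). The pseudogene NUDT16P1 had 474 and 511 in the mock controls, against 237, 425 and 196 in the clones, and its log2 fold change of -0.86 did not pass (adjusted p = 0.163). Without clone 2 it did (log2 fold change -1.19, adjusted p = 0.016). Reads in stretches shared by genes on opposite strands cannot be assigned without strand information, and the counting is not stated to use strand.

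CCDC152 and SELENOP converge and overlap at their 3′ ends over 2481 bases. SELENOP had 222 and 240 in the mock controls, against 229, 158 and 123 in the clones, with clone 1 at the mock level and clones 2 and 3 below it (log2 fold change -0.49, SE 0.23, adjusted p = 0.364). The ratio of CCDC152 to SELENOP, likewise a description, was 0.85 and 0.703 in the mock controls, against 0.0395, 0.0852 and 0.0781 in the clones. On the other side, FBXO4, an F-box protein of ubiquitin ligases, had 13.9 ± 4.95 (SD, n = 2) in the mock controls, against 22.8 ± 1.58 (n = 3) in the clones, and GHR, the growth hormone receptor, had 18.8 ± 2.11 and 17 ± 4.49. Neither passed the test, with adjusted p of 0.392 for FBXO4 and 0.871 for GHR by limma.

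MPV17L is followed on the same strand by C16orf45, whose 5′ end lies 38.5 kb downstream, and RefSeq also lists a read-through gene that joins them. C16orf45 had 416 ± 2.28 (SD, n = 2) in the mock controls, against 427 ± 71.2 (n = 3) in the clones, a log2 fold change of 0.02 (adjusted p = 0.96). The ratio of MPV17L to C16orf45 was 0.287 and 0.296 in the mock controls, 0.00427 in clone 1 and 0 in clones 2 and 3. This ratio too is a description, since MPV17L was selected as low in the clones. On the other side NPIPA5, a member of a family of near-identical copies whose reads can be split between them, had 85.4 ± 12.9 in the mock controls, against 68 ± 1.44 in the clones (adjusted p = 0.517).

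AC004687.1 lies wholly within TSPOAP1-AS1 on the opposite strand, an overlap of 1625 bases. Its 5′ end is 3.75 kb upstream of the 5′ end of TSPOAP1, a scaffold protein of synapses. TSPOAP1-AS1 had 17.3 ± 0.058 (SD, n = 2) in the mock controls, against 16, 11.7 and 6.73 in the clones (adjusted p = 0.536). TSPOAP1 had 648 ± 24 and 528 ± 110 (adjusted p = 0.383), and without clone 3 it passed the test at a log2 fold change of -0.48 (adjusted p = 0.0183). Without clone 3, however, 524 genes were called lower and 520 higher over the whole set, beside 180 and 181 with all libraries. The ratio of AC004687.1 to TSPOAP1-AS1, likewise a description, was 8.6 and 9.28 in the mock controls, against 1, 0.308 and 1.57 in the clones. RNF43, a ubiquitin ligase that dampens WNT signalling and starts 85.1 kb away, had 34.3 ± 6.11 in the mock controls, against 14.9 ± 0.499 in the clones, a log2 fold change of -1.14 (SE 0.33) that did not pass (adjusted p = 0.137).

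TUSC1 has no listed gene that starts within 1 Mb of its own start. The nearest on either side, AL451137.1 at 1069 kb and AL365204.1 at 1849 kb, were too scarce to be tested. The one tested neighbour was ELAVL2, a neuronal RNA-binding protein whose 5′ end lies 1852 kb away, with 279 ± 2.16 (SD, n = 2) in the mock controls, against 490, 492 and 452 in the clones. ELAVL2 was thus higher in all 3 clones, with a log2 fold change of 0.77 (SE 0.12, adjusted p = 0.0103). The call was lost without clone 1 (adjusted p = 0.0621), without mock control 1 (0.164) and without mock control 2 (0.149), at log2 fold changes of 0.75 to 0.78.

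AC097652.1 has ZFP42 as its next listed gene, with 5′ ends 686 kb apart on opposite strands. Its difference of -9.69 on the log2 scale of value + 1 is given with no test, since ZFP42 has the same readout as the members and passed the filter through the mock controls alone. TRIML2, the next gene after it, had 879 and 892 in the mock controls, against 565, 458 and 1137 in the clones, below the mock controls in clones 1 and 2 and above them in clone 3 (adjusted p = 0.548, and 0.003 without clone 3). Leaving out clone 3 called more genes throughout, as given above. On the other side, AC108865.1, 419 kb away, had 44.1 ± 0.42 and 55.3 ± 13.3 (adjusted p = 0.655). RefSeq places the 5′ end of LOC339975 196 kb farther upstream than the deposited annotation, so reads from that part of the RefSeq gene would not be counted in AC097652.1.

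AC079062.1 is flanked by LINC02582, whose 5′ end lies 60.5 kb away on the opposite strand. LINC02582 had 22.7 ± 6.07 (SD, n = 2) in the mock controls, against 9.02, 14.4 and 30.8 in the clones, which overlap (adjusted p = 0.696). TIMM21, a subunit of the mitochondrial import machinery 884 kb away, had 649 ± 7.77 and 634 ± 54.9 (adjusted p = 0.905).

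Over a wider stretch, the genes around each member were close to the level of all genes. The median log2 fold change of the 10 nearest tested genes was between -0.24 (CCDC152) and -0.01 (MPV17L), beside a median of -0.01 over all tested genes. Around TUSC1 it was -0.03, with medians of 0.03, 0.09 and 0.05 in the clones taken 1 by 1, and around ASTE1 it was -0.12, with -0.04, -0.16 and -0.17. Around CCDC152 the clones gave -0.12, -0.34 and -0.15, and the 2 mock controls differed there by 0.01. With the 20 nearest genes the median around CCDC152 was -0.04.

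Genes related to the protein-coding members by family or function were then described. Of 45 such genes 41 were tested, and 0 passed the adjusted test by limma, while 7 (17.1%) had an unadjusted p below 0.05 beside 15.1% of all genes. DESeq2 called 3 of them, SHLD3, MAD2L2 and GPX3, in a fit that called 279 genes lower and 349 higher in all. edgeR called none of them, and 174 genes lower and 174 higher in all. In the MPV17 family, MPV17, MPV17L2 and PXMP2 had log2 fold changes of 0.15, -0.20 and 0.02. MPV17, whose loss causes mitochondrial DNA depletion, had 665 and 605 in the mock controls, against 694, 745 and 681 in the clones (adjusted p = 0.527). Each of these 3 relatives kept at least 32.4 normalized counts in every clone.

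The FEN1-related nucleases around ASTE1 differed little between the groups. FEN1, the flap endonuclease of lagging-strand synthesis, had a log2 fold change of -0.04 (SE 0.11), EXO1 of -0.09, ERCC5 of -0.15 and GEN1 of 0.27, and none of the 4 passed. Of the 6 genes of the 53BP1-shieldin pathway, 4 had an unadjusted p below 0.05, beside 15.1% of all genes, and none an adjusted p below 0.05. SHLD3, the shieldin subunit that contacts RIF1, had 34.6 and 49.2 in the mock controls, against 105, 76.5 and 83.7 in the clones (log2 fold change 1.07, SE 0.26, adjusted p = 0.0742). MAD2L2, the REV7 subunit, had 5621 and 5767 in the mock controls, against 4585, 4604 and 4597 in the clones (log2 fold change -0.31, SE 0.09, adjusted p = 0.117). TP53BP1 had a log2 fold change of 0.32 (SE 0.10, adjusted p = 0.164) and SHLD1 of -0.52 (SE 0.21, adjusted p = 0.289), and the groups did not overlap in any of these 4 genes, as in 36.8% of all genes.

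For SELENOP, the partner of CCDC152, selenoproteins and the genes that make and take them up were listed. None of the 21 selenoproteins tested passed, and their median log2 fold change was -0.19 beside -0.01 over all genes. The estimate was negative in 18 of the 21 (85.7%, beside 51.8% of all tested genes), and clone 3 was the lowest clone in 16 of them (76.2%, beside 41.3%). The 21 genes include SELENOP and were measured in the same libraries, so they are not independent. These counts are a description, and the list as a set was not tested. GPX4, the peroxidase that protects membranes from lipid peroxidation, had 4771 and 4850 in the mock controls, against 3869, 4606 and 3483 in the clones (log2 fold change -0.28, adjusted p = 0.304). GPX3, the plasma peroxidase, had 879 and 899 in the mock controls, against 690, 680 and 585 in the clones (log2 fold change -0.45, SE 0.11, adjusted p = 0.0825). LRP8, a receptor for SELENOP, had 4180 and 4261 in the mock controls, against 3667, 3345 and 4354 in the clones, which overlap (adjusted p = 0.535), and without clone 3 it was called lower at a log2 fold change of -0.27 (adjusted p = 0.04). LRP2, the other receptor listed, had 271 and 241 in the mock controls, against 439, 418 and 235 in the clones (adjusted p = 0.414), and without clone 3 it was called higher at 0.74 (adjusted p = 0.00554). Both of these calls come from the setting without clone 3, in which 524 genes were lower and 520 higher.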

How the data were processed

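Poly(A)+ RNA-seq of 2 mock control and 3 CFIm25-m libraries of H9 cells was analysed, grouped by the sample titles. The submitters' processing notes name the aligner HISAT2, the counter featureCounts (Subread), DESeq2 and hg38, with no versions and no strand setting. The deposited normalized values are a signal per gene. The authors' table also holds group means, fold changes and p-values, which were not used. Dividing each column by its smallest step gave whole reads for 100% of values (tolerance 0.01).

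The 7 members and all gene lists were chosen with earlier results of these data known. For the other genes, log2(normalized count + 1) was fitted with limma 3.58.1 (trend, R 4.3.3), over genes with at least 10 in 2 of the 5 libraries, with Benjamini-Hochberg adjustment and a threshold of 0.05. edgeR 4.0.16 or DESeq2 1.42.0 applied to recovered reads, TMM and total-read scaling, filters, pseudocounts, the replicate block and left-out libraries were alternatives. Exact 95% intervals are conditional on the summed reads of both groups. A count of 0 was given a limit of 3 reads per library. Scripts were tested on simulated data. The genes named are the members, their positional neighbours, NUDT21, list genes, the 10 most alike and 4 genes named after their values were seen. RefSeq positions of GRCh38.p14 overlapped the deposited ones for 99.9% of 23133 genes matched by symbol, and 4 of the 7 members had a RefSeq promoter.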

Additional observations from a re-analysis of the deposited data

How the results depend on the processing

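Of all tested genes, 180 were lower and 181 higher in the clones by limma-trend, against 279 and 349 by DESeq2 and 25 and 21 by limma without a trend. Leaving out 1 library, which for a mock control assumes that the remaining one varies like the clones, gave 33 to 524 lower and 31 to 520 higher. Called neighbours numbered 2, ZFP42 with the members' readout among them, with 1 by limma without a trend and 1 to 4 when 1 clone was left out. ZFP42, MPV17L, ASTE1 and the members with no reads in the clones drop out of the filter when a mock control is left out. Fewer than 2 libraries then reach 10 for these genes. Called list genes numbered 0, with 3 by DESeq2 and 0 to 5 when 1 library was left out. NUDT21 missed the threshold by limma without a trend, at -0.86 (adjusted p = 0.106), and its log2 fold change ran from -0.95 to -0.80 over the left-out libraries. Genes near zero in every clone numbered 10, with 6 at a ratio of 0.05, 19 at 0.2, and 11 to 16 when 1 library was left out, a set of alternatives chosen after seeing the data. Leaving out a library can only add genes under this rule, so each such set had to contain the original 10. The largest, 16, came without clone 1 and included AC004687.1. With the 20 nearest genes, the median log2 fold change was 0.03 around TUSC1, 0.09 around ASTE1, -0.04 around CCDC152 and 0.20 around AC079062.1. Beyond the loss of samples or genes, the cause was not tested.

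Nothing in the labels ties same-numbered samples to a shared source. The deviations of same-numbered samples from their group means correlated at 0.00717 and 0.018. With the replicate block, in which clone 3 has no mock control of its number and carries no weight in the contrast, 1064 genes were lower and 1043 higher, with 5 neighbours and 8 list genes called.

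The direction of the members' differences was fixed by their selection, and their size depends on the pseudocount. For TUSC1 the value ran from -4.58 at a pseudocount of 5 to -10.17 at 0.1. Depth limits AC079062.1 most, with 39 reads in the mock controls together.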
